A study of Mus musculus with 12 samples.

Results

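The T cell receptors of tumor-infiltrating CD8+ cells sorted with an Rpl18 tetramer were compared between KO and WT mice. The comparison took every tumor library of the series, 6 of 12 libraries in all, with 3 KO tumor libraries (numbers 1, 2 and 3) set against 3 WT tumor libraries (numbers 2, 3 and 4). KO mice carried a knockout of TrIP restricted to CD8+ cells, and WT mice did not. All 6 libraries came from day 10 tumors grown from MC38, a line of mouse colon carcinoma cells. The driver of the knockout, the strain, the age of the mice and the number of mice behind a library are not stated in the labels. WT tumor 2 carries the number 1 in the deposited tables and was matched through its library name.

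A T cell receptor is a pair of an alpha (TRA) and a beta (TRB) chain. Each chain is assembled by joining a V to a J segment, with a D segment in between for TRB, and the loop made at the joint, the CDR3, is the part of the receptor that lies closest to the presented peptide. Every cell that descends from one naive T cell inherits the same rearrangement, so the share of reads held by one CDR3 follows the expansion of a clone as well as its RNA content. In these bulk libraries more cells of a clone and more receptor RNA per cell cannot be told apart. Rpl18 is a ribosomal protein of which MC38 cells carry a mutated form that CD8+ T cells can recognise, and TrIP is a membrane protein that restrains PI3 kinase signaling in T cells.

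A TRA clonotype here combines a V segment, a J segment and 1 CDR3 read in nucleotides, and a TRB sequence is 1 CDR3 in nucleotides, because the deposited TRBV names do not follow the mouse naming. Productive reads, meaning reads of rearrangements that stay in frame without a stop, numbered 23633 to 94874 for TRA and 53402 to 188616 for TRB over the 6 libraries. The lowest TRA depth was that of KO tumor 1 and the lowest TRB depth that of WT tumor 2. Productive reads made up 71.9% of all TRA reads in WT tumor 3, the lowest share, and 95.2% in WT tumor 4, the highest. Rearrangements of invariant NKT and of MAIT cells had 0 reads in all 6 libraries. Such a count of 0 allows a share of at most 0.00316% in the deepest and 0.0127% in the shallowest TRA library, and 0.00159% to 0.00562% for TRB, and these limits hold wherever a share of 0% is given below. TRG, TRD, IGH and IGK chains also had no reads, and KO tumor 1 held 1 IGL read. Apart from that read, the reads assigned to a chain were TRA or TRB. The RNA was amplified with TCR-specific primers, so the absence of other chains does not show which cells the sort held. CD8 and TrIP transcripts were not among the values analysed here, so the sort and the knockout were not checked. Intervals and limits below cover counting error only.

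Before the groups are compared, the clones that the libraries share have to be stated, because the libraries were not independent. Overlap was measured by the Morisita-Horn index, which is 0 for libraries with no clone in common and 1 for identical ones. KO tumor 2 and KO tumor 3 had an index of 0.713 for TRA and 0.516 for TRB. KO tumor 1 and WT tumor 4 had 0.203 for TRA and 0.192 for TRB. Both chains therefore joined the same pairs of libraries, 1 pair within KO and 1 pair across the genotypes. Every other pair stayed at or below 0.00728. Clonotypes at 1% or more of KO tumor 3 took 81.3% of the TRA reads of KO tumor 2, and those of KO tumor 2 took 45.2% of KO tumor 3. Clonotypes at 1% or more of WT tumor 4 took 15.0% of the TRA reads of KO tumor 1, and those of KO tumor 1 took 60.1% of WT tumor 4. The mean index within a genotype minus that across genotypes was 0.0972 for TRA (exact two-sided permutation p = 0.7) and 0.0649 for TRB (p = 0.8), and without either KO tumor 2 or KO tumor 3 it was below 0 for both chains (-0.0322 and -0.0325 for TRA). In the authors' deposited table the number of shared TRB sequences was also highest for KO tumors 2 and 3, at 639, and next for KO tumor 1 and WT tumor 4, at 260, against 13 to 115 for the other pairs. Whether shared clones arose in separate mice, in mice sampled together or in handling was not tested.

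**Figure D1:**
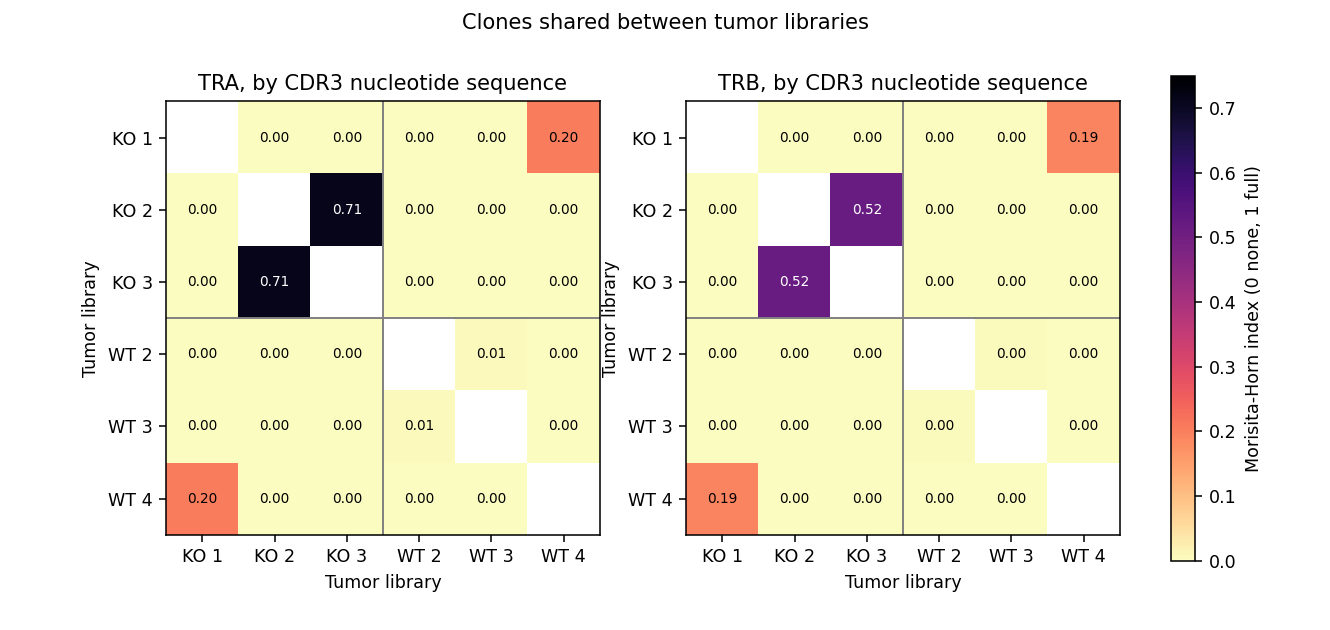
Morisita-Horn index between each pair of tumor libraries, by CDR3 nucleotide sequence, for TRA (left) and TRB (right), with KO libraries above and to the left of WT libraries and the diagonal left blank. KO 2 with KO 3 and KO 1 with WT 4 stand out in both chains, and the other 13 pairs lie near 0.

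The lymph node libraries bear on the same point. A letter in the library names joins each tumor library to 1 library of the tumor-draining lymph node (TDLN), yet clonotypes at 1% or more of the node library with the same letter took at most 0.106% of a tumor library's TRA reads over the 6 such pairs. Among the 30 pairs with different letters the share reached 91.1%, and 6 pairs were at 10% or more. WT tumor 2 and WT tumor 3 had most of their TRA reads in large clonotypes of KO lymph node libraries, with 91.1% for WT tumor 2 in KO TDLN 1 and 87.2% for WT tumor 3 in KO TDLN 3. KO tumor 3 had 40.7% in WT TDLN 3. The names KO and WT below are those of the labels, and an exchange of libraries was not tested. Exact permutation tests and SDs treat the 6 libraries as independent, which they are not, and measure only the spread between these libraries. The fits below for segments and for TRB chain ends also treat libraries as independent, so the same limit holds for their p-values and calls.

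The largest clone of a library took a smaller share of reads in KO than in WT tumors for TRB, though no difference of this kind passed the test. The largest TRB sequence held 27.8%, 40.5% and 20.5% of productive reads in KO tumors 1, 2 and 3, against 56.8%, 46.5% and 42.6% in WT tumors 2, 3 and 4. All 3 WT values lay above all 3 KO values, although the smallest gap, between KO tumor 2 and WT tumor 4, was narrow. The means were 29.6% ± 10.1 in KO and 48.6% ± 7.36 in WT (SD, n = 3 each), a difference of -19.0 points (exact two-sided permutation p = 0.1). With 3 libraries against 3 an exact p cannot fall under 0.1, and after Benjamini-Hochberg adjustment over 20 single values the p was 0.571. With clonotypes at 1% or more in several tumor libraries left out the difference was -14.6 points and the groups overlapped, and with every clonotype shared between libraries of different letters left out it was 11.1 points. Of the 18 single values measured per library, 3 (16.7%) had groups that did not overlap. They were this one, the number of TRA clonotypes at 1% or more and the net charge of the TRA CDR3.

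The largest TRA clonotype held 17.3%, 35.5% and 20.8% of productive reads in KO tumors 1, 2 and 3, against 85.4%, 40.2% and 20.9% in WT tumors 2, 3 and 4. The groups overlapped, and WT tumor 2 stood far above every other library. The difference was -24.2 points (exact p = 0.2, adjusted p = 0.571), and it was -5.96 points without WT tumor 2 and -38.2 points without WT tumor 4. Wilson 95% intervals of these shares were narrow, from 16.9% to 17.8% for KO tumor 1 with the fewest reads, so counting error was small beside the spread between libraries.

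The CDR3 sequences of the largest TRA clonotypes are shown as the clones with the most reads. Each runs 5′ to 3′ as deposited, and capitals mark the middle of the loop, after the first 3 and before the last 4 codons.
KO tumor 1, TRAV6-1 TRAJ30: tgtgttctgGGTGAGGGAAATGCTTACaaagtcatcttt
KO tumors 2 and 3, TRAV7-4 TRAJ42: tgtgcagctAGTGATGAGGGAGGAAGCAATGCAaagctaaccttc
WT tumor 2, TRAV14-2 TRAJ22: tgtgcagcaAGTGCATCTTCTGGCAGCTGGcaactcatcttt
WT tumor 3, TRAV13-2 TRAJ30: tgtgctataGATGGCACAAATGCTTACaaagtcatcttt
WT tumor 4, TRAV16 TRAJ22: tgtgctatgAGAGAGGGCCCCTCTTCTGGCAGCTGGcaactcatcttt
The same clonotype led KO tumor 2 and KO tumor 3, and no 2 WT libraries shared their leading clonotype.

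The largest TRB sequences are shown in the same way.
KO tumor 1, end EQYF: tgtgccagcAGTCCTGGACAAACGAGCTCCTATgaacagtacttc
KO tumor 2, end DTQYF: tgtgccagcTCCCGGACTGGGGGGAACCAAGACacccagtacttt
KO tumor 3, end DTQYF: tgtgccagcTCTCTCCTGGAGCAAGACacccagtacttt
WT tumor 2, end EQYF: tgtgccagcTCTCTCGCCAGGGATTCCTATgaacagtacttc
WT tumor 3, end DTQYF: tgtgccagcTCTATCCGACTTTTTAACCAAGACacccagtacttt
WT tumor 4, end GNTLYF: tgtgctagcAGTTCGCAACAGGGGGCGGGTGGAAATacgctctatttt
The 6 leading TRB sequences all differed. The leader of KO tumor 2 was the second largest of KO tumor 3, at 13.1% of its reads. The leader of WT tumor 4 also took 6.38% of KO tumor 1, where it ranked behind 3 others.

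Second clones came closer in size to the first in KO. The largest TRB sequence was 1.16, 2.20 and 1.56 times the size of the second in KO tumors 1, 2 and 3, against 3.17, 3.21 and 3.35 times in WT tumors 2, 3 and 4. The WT ratios lay close together and above all KO ratios, a comparison that was added after the values were seen and carries no test. For TRA the same ratio was 1.54, 2.33 and 2.06 in KO, against 14.8, 2.49 and 1.17 in WT, where WT tumor 4 was the lowest of all.

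**Figure D2:**
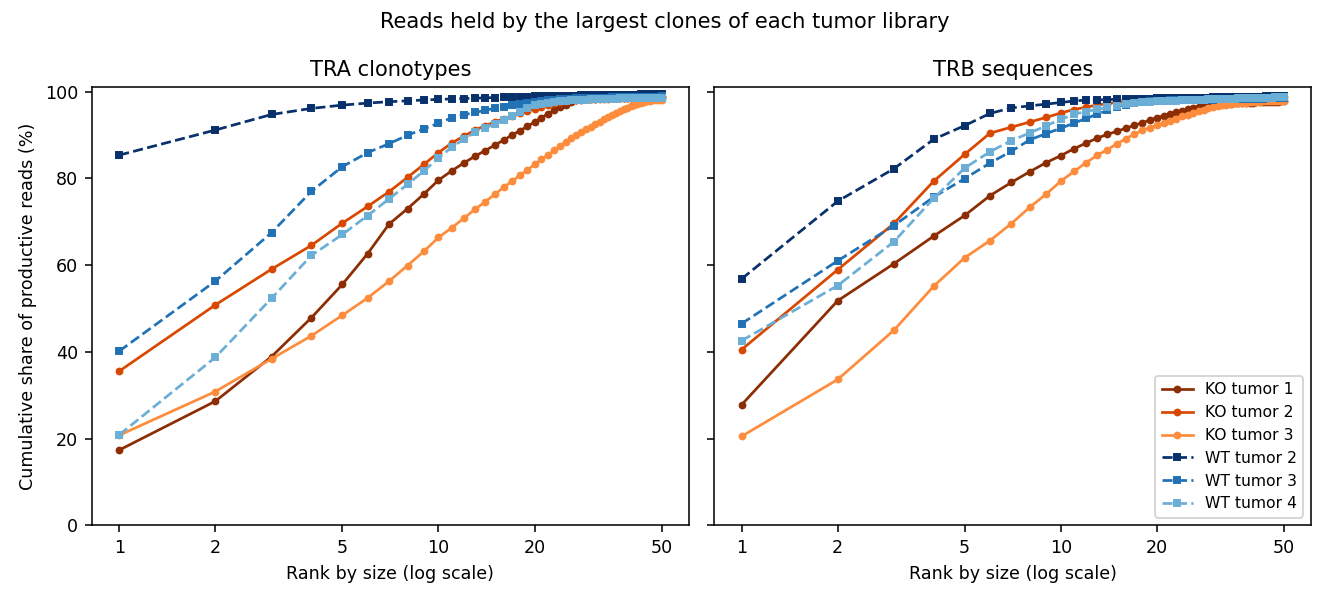
Cumulative share of productive reads (%) held by the 1 to 50 largest TRA clonotypes (left) and TRB sequences (right), with rank on a log axis; solid lines with circles are KO tumor libraries and dashed lines with squares WT tumor libraries. WT tumor 2 starts at 85.4% for TRA, and for TRB the 3 WT libraries start above the 3 KO libraries.

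Clones of middle size were more numerous in each KO library than in any WT library for TRA. TRA clonotypes at 1% or more of a library numbered 18, 14 and 24 in KO tumors 1, 2 and 3, against 4, 11 and 13 in WT tumors 2, 3 and 4. The groups did not overlap, with KO tumor 2 and WT tumor 4 only 1 clonotype apart. The means were 18.7 ± 5.03 in KO and 9.33 ± 4.73 in WT (SD, n = 3 each), a difference of 9.33 (exact p = 0.1, adjusted p = 0.571). With clones defined by their amino acids, with the TRAJ7 frame as deposited, or with entries under 0.01% left out, the groups overlapped and the difference was 8.67 to 9.67. With every clonotype shared between libraries of different letters left out, which kept 0.915% to 21.8% of the TRA reads of a library, it was 0.333.

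The size classes show where these reads lay. Clonotypes from 1% to under 10% held 52.1%, 41.3% and 56.6% of TRA reads in KO tumors 1, 2 and 3, against 10.8%, 26.5% and 38.3% in WT tumors 2, 3 and 4. Clonotypes of 10% or more held 38.9%, 50.8% and 30.8% in KO, against 85.4%, 67.5% and 52.3% in WT. Both classes separated the genotypes, and they are 2 views of 1 difference, since each gains what the other lacks. The number of clonotypes of 10% or more averaged 2.33 in both genotypes, with 3, 2 and 2 in KO and 1, 3 and 3 in WT. Clonotypes under 0.1% held 1.92% ± 0.108 in KO and 1.92% ± 0.281 in WT (SD, n = 3 each), so these entries took nearly equal shares. Many entries lay 1 base from a far larger clonotype, as given below, so this class need not hold separate small clones.

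TRB gave a weaker form of the same pattern. TRB sequences at 1% or more numbered 13, 10 and 17 in KO tumors 1, 2 and 3, against 7, 12 and 11 in WT tumors 2, 3 and 4. The groups overlapped (difference 3.33, exact p = 0.4). Sequences from 1% to under 10% held 37.5%, 25.5% and 35.0% of TRB reads in KO, against 21.5%, 32.8% and 19.4% in WT. WT tumor 3 lay inside the KO range here.

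**Figure D3:**
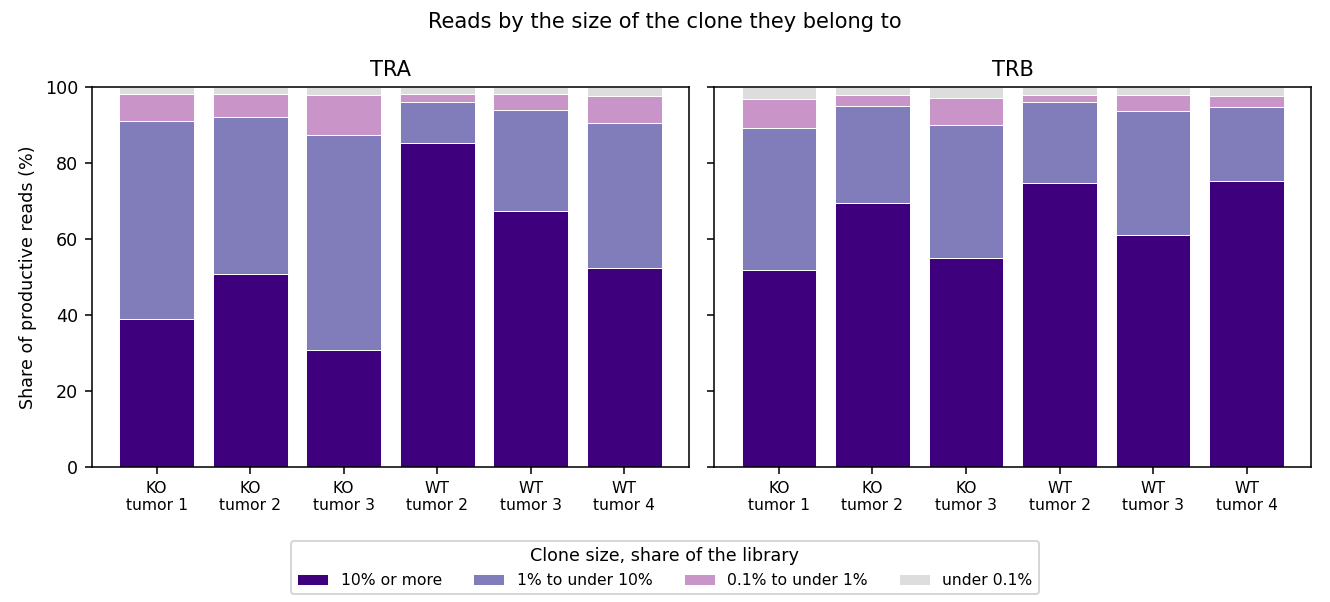
Share of productive reads (%) in clones of 4 size classes, stacked for each KO tumor library (left 3 bars of each panel) and WT tumor library (right 3 bars), for TRA and TRB. For TRA the class from 1% to under 10% is larger in every KO library than in any WT library.

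Clones needed to reach 50% of reads numbered 5, 2 and 6 in KO tumors 1, 2 and 3 for TRA, against 1, 2 and 3 in WT tumors 2, 3 and 4 (exact p = 0.3). For TRB they numbered 2, 2 and 4 in KO, against 1, 2 and 2 in WT (exact p = 0.6). A few clones thus held most reads in every library of either genotype. Clonality, which is 1 minus the Shannon entropy over its highest possible value, was 0.492, 0.595 and 0.485 for TRA in KO, against 0.875, 0.655 and 0.588 in WT. KO tumor 2 lay just above WT tumor 4, and the difference was -0.182 (exact p = 0.2, adjusted p = 0.571), or -0.0974 without WT tumor 2. TRB clonality was 0.621, 0.684 and 0.576 in KO, against 0.740, 0.675 and 0.687 in WT, where KO tumor 2 lay above WT tumor 3 (difference -0.0738, exact p = 0.2).

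The number of different clones was counted at equal depth, 23633 TRA and 53402 TRB reads, so that deeper libraries gained nothing. TRA clonotypes then numbered 307, 303.4 and 352.4 in KO tumors 1, 2 and 3, against 169.3, 269.8 and 312.5 in WT tumors 2, 3 and 4. WT tumor 4 exceeded KO tumors 1 and 2, and the difference of 70.4 had an exact p of 0.3. TRB sequences numbered 680.0, 422.8 and 623.8 in KO, against 392, 493.9 and 441.4 in WT, and KO tumor 2 lay inside the WT range (difference 133.1, exact p = 0.3). Single reads made up 68.7% to 72.6% of TRA entries in KO and 64.7% to 67.9% in WT, so these numbers rest largely on entries seen once. Merging entries 1 base from a clone at least 100 times larger lowered the number in every library. TRA clonotypes then numbered 114, 121.97 and 156.2 in KO, against 72.6, 112.4 and 112.9 in WT. These groups did not overlap (difference 31.4, exact p = 0.1), though KO tumor 1 and WT tumor 4 lay close. Merged TRB sequences numbered 201.2, 98.96 and 121.1 in KO, against 111, 119.5 and 87.66 in WT, and overlapped.

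**Figure D4:**
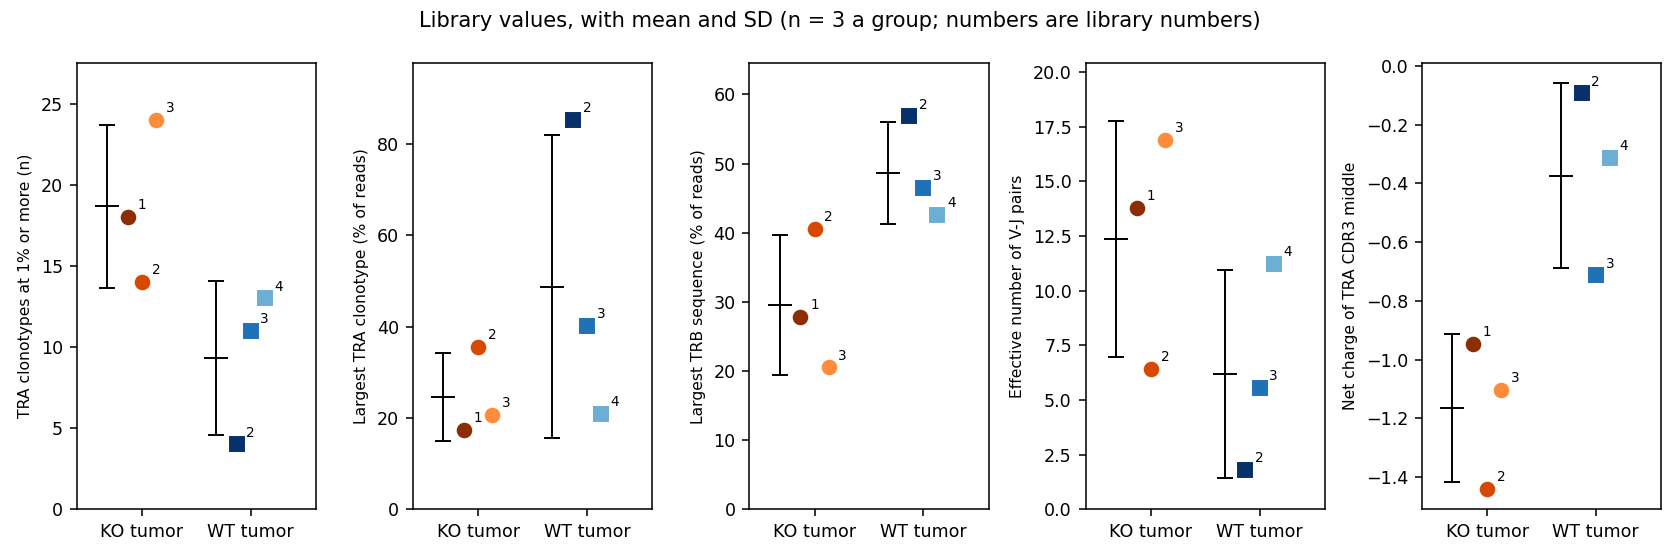
Values of each library for 5 measures, with KO tumor (circles) left of WT tumor (squares), small figures giving the library number and black bars the mean and SD of 3 libraries. TRA clonotypes at 1% or more, the largest TRB sequence and the net charge of the TRA CDR3 do not overlap between the groups, whereas the largest TRA clonotype and the effective number of V-J pairs do.

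The authors' deposited table of metrics holds shares from its own counting, whose method the labels do not describe. In the authors' deposited table the 5 largest TRB clones held 60.3%, 55.9% and 45.6% in KO tumors 1, 2 and 3, against 95.7%, 84.1% and 64.6% in WT tumors 2, 3 and 4. The 5 largest TRA clones held 44.3%, 57.4% and 34.4% in KO, against 94.0%, 62.8% and 57.9% in WT, also in the authors' deposited table. Neither pair of groups overlapped, though KO tumor 2 and WT tumor 4 were nearly equal for TRA. From the rows, the 5 largest TRB sequences held 71.4%, 85.6% and 61.7% in KO, against 92.2%, 79.9% and 82.4% in WT, where KO tumor 2 lay above WT tumors 3 and 4. From the rows, the 5 largest TRA clonotypes held 55.6%, 69.7% and 48.4% in KO, against 96.9%, 82.7% and 67.1% in WT, where KO tumor 2 lay above WT tumor 4. For the 5 largest clones the separation in the authors' deposited table was thus not found for either chain when it was computed from the rows. For the largest TRB clone the authors' table gave 22.4%, 12.5% and 12.3% in KO, against 84.4%, 42.8% and 22.6% in WT. These groups did not overlap, as from the rows, though KO tumor 1 and WT tumor 4 were nearly equal. The shares themselves differed, with 12.5% for KO tumor 2 against 40.5% from the rows, and that deposited column holds 2 kinds of values.

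V-J pairing was spread over more pairs in KO tumors 1 and 3 than elsewhere. The effective number of V-J pairs, the number of equally common pairs that would give the same entropy, was 13.8, 6.42 and 16.9 in KO tumors 1, 2 and 3, against 1.80, 5.56 and 11.2 in WT tumors 2, 3 and 4. The groups overlapped, since KO tumor 2 lay under WT tumor 4, and the difference was 6.16 (exact p = 0.2, adjusted p = 0.571). It was 3.90 without KO tumor 3, 3.96 without WT tumor 2 and 9.14 without KO tumor 2. V-J pairs at 1% or more numbered 18, 11 and 21 in KO, against 4, 9 and 13 in WT, and V segments at 1% or more 13, 9 and 15 in KO, against 3, 7 and 10 in WT.

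Apart from KO tumors 2 and 3, which had the same leading pair, each library was led by another pair. The largest pair held 18.1%, 48.3% and 26.5% in KO tumors 1, 2 and 3, against 86.5%, 41.0% and 21.5% in WT tumors 2, 3 and 4 (difference -18.7 points, exact p = 0.6). Its largest clonotype made up 96.0%, 73.6% and 78.4% of the leading pair in KO, against 98.6%, 98.0% and 97.3% in WT. The second pair of WT tumor 3, TRAV7-6 TRAJ42, was more mixed, with 46.3% in its largest clonotype. Of 176 V-J pairs with reads in the tumor libraries, 2 had reads in all 6, and of the 53 pairs at 1% or more in any library, 36 reached 1% in 1 library only.

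TRAV7-4 TRAJ42, joining a V and a J segment of the TRA locus, was the leading pair of KO by mean share, with 0.00846%, 48.3% and 26.5% of TRA reads in KO tumors 1, 2 and 3, against 0.0137%, 0.00886% and 0.239% in WT tumors 2, 3 and 4. KO tumor 1 lay with the WT libraries, and the high values were those of the 2 KO libraries that share clones. In KO tumor 2 the pair held 8 clonotypes at 0.1% or more and in KO tumor 3 it held 5. TRAV7-4 also met TRAJ7, with 10.3%, 0% and 10.8% in KO, against 0%, 0.00531% and 0.878% in WT, and KO tumor 2, where TRAV7-4 TRAJ42 was highest, had no read of it. These TRAJ7 values rest on a base restored to TRAJ7 rows that were deposited 1 base short, and in the deposited frame TRAV7-4 TRAJ7 was at most 0.00249% in any library. Over all J segments TRAV7-4 had 12.03%, 48.3% and 37.3% in KO, against 0.0137%, 0.0142% and 8.27% in WT. All 3 KO libraries thus lay above all 3 WT libraries, through different J segments in KO tumor 1 than in KO tumor 2, and the edgeR adjusted p was 0.396. Without WT tumor 4 it was the 1 TRAV segment that passed the test. In the deposited TRAJ7 frame TRAV7-4 had 1.95%, 50.05% and 32.5% in KO, against 0.0137%, 0.00886% and 8.01% in WT, and the groups overlapped. With shared clonotypes left out the KO minus WT difference was 1.06 points, against 29.8 points with all clonotypes, and the groups overlapped as well.

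TRAV14-2 TRAJ22 was the leading pair of WT by mean share, and it rested on 1 library. It had 0%, 0.111% and 0.00203% in KO tumors 1, 2 and 3, against 86.5%, 0.407% and 0% in WT tumors 2, 3 and 4. TRAJ22 as a whole had 3.22%, 0.111% and 0.00203% in KO, against 86.9%, 0.420% and 23.4% in WT, with TRAV16 as its partner in KO tumor 1 and WT tumor 4. TRAV16 TRAJ22 had 3.22% in KO tumor 1 and 0% in KO tumors 2 and 3, against 21.5% in WT tumor 4 and 0% in WT tumors 2 and 3. That pair followed the clones shared between KO tumor 1 and WT tumor 4, as did TRAV6-5 TRAJ23 at 3.42% and 13.9% in these libraries. TRAV16 TRAJ32 had 3.60% in KO tumor 1, 0% in KO tumor 2 and 1.80% in KO tumor 3, against 18.3% in WT tumor 4 and 0% in the other WT libraries.

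TRAV7-6 TRAJ42 reached 1% in 5 of the 6 libraries, with 14.6%, 2.06% and 5.42% in KO tumors 1, 2 and 3, against 0.0896%, 24.2% and 3.41% in WT tumors 2, 3 and 4. It is a different V segment of the TRAV7 family joined to the same J segment as the leading KO pair. TRAJ42 with any V had 14.6%, 50.4% and 31.9% in KO, against 0.103%, 30.0% and 5.64% in WT, and it had the largest mean share of any TRAJ segment over the 6 libraries. Its difference was 0.0352 points with shared clonotypes left out, against 20.4 points with all. Related members of the TRAV7 family are close in sequence, so reads could be split between them by the counting.

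Other leading pairs belonged to 1 or 2 libraries. TRAV6-1 TRAJ30 held 18.1% in KO tumor 1 and at most 0.00177% elsewhere, and TRAV13-2 TRAJ30 held at most 0.0366% in KO libraries, against 41.0% in WT tumor 3. TRAV3-3 TRAJ21 held at most 0.0183% in KO libraries, against 16.4% in WT tumor 3. TRAV16 TRAJ27, at 15.5% and 2.07%, and TRAV14-3 TRAJ48, at 8.34% and 3.89%, were confined to KO tumors 2 and 3 above 0.01%. Each of these pairs thus had a high share without being high in all libraries of its genotype. TRAV16 was the only V segment at 1% or more in every tumor library, with 10.9%, 19.1% and 6.48% in KO, against 11.0%, 3.56% and 45.1% in WT.

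**Figure D5:**
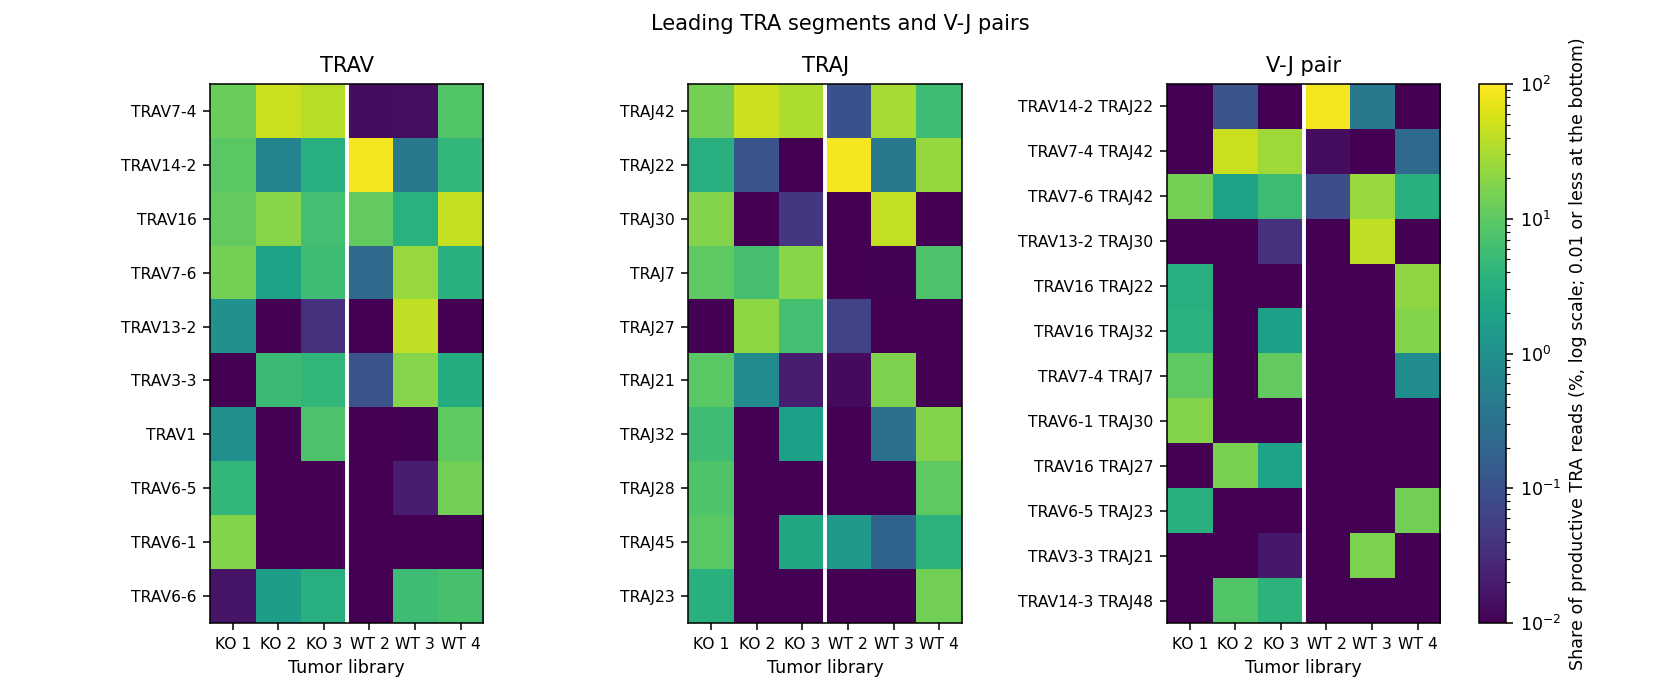
Share of productive TRA reads (%, log colour scale, values of 0.01 or less at the bottom) of the 10 TRAV and 10 TRAJ segments and the 12 V-J pairs with the largest mean share over the 6 tumor libraries, with KO libraries left of the white line and WT libraries right of it. TRAV7-4 is bright in all 3 KO libraries and in WT 4, and most V-J pairs are bright in 1 or 2 libraries.

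No segment passed the test between the genotypes. In an edgeR quasi-likelihood fit over all 12 libraries in 4 groups, adjusted by Benjamini-Hochberg, 0 of 47 TRAV segments (0%), 0 of 43 TRAJ segments (0%) and 0 of 301 V-J pairs (0%) had an adjusted p under 0.05. At an unadjusted p under 0.05 there were 11, 10 and 5. DESeq2 called 2 TRAV segments, 3 TRAJ segments and 1 V-J pair, and limma with 0.1% added called 0, 1 and 1. Groups that did not overlap were found for 3 TRAV segments (6.38%), 1 TRAJ segment (2.33%) and 1 V-J pair (0.332%), all higher in KO. These shares are of the features tested over all 12 libraries. Of the 301 V-J pairs, 57 had a higher mean in KO tumors and 56 in WT tumors, and the rest could not separate the groups. Other than TRAV7-4 the features that did not overlap were named after their values were seen, and settings in which they overlapped are given with each.

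TRAV6-7 had 6.86%, 0.362% and 5.37% in KO tumors 1, 2 and 3, against 0%, 0.0266% and 0.0218% in WT tumors 2, 3 and 4 (edgeR adjusted p = 0.154), and these groups overlapped in the deposited TRAJ7 frame. TRAV7-3 had 0.00423%, 5.58% and 4.04% in KO, against 0.00422%, 0.00354% and 0.00290% in WT, so in KO tumor 1 it was at the WT level, and the groups overlapped with shared clonotypes left out. TRAJ52 had 2.25%, 3.08% and 0.728% in KO, against 0.00105%, 0% and 0% in WT (edgeR adjusted p = 0.188), nearly all of it joined to TRAV16. TRAJ52 thus had 2189 reads over the KO libraries and 1 read over the WT libraries. It was among the segments called by DESeq2 and was the one called by limma with 0.1% added, and its groups stayed apart in the deposited TRAJ7 frame and with shared clonotypes left out.

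TRB chains were grouped by the last residues of the CDR3, which the J segment sets, and no class separated the genotypes. Chains ending DTQYF had 6.42%, 61.1% and 66.2% of TRB reads in KO tumors 1, 2 and 3, against 14.6%, 80.2% and 21.1% in WT tumors 2, 3 and 4. Chains ending EQYF had 37.7%, 0.0217% and 3.77% in KO, against 60.3%, 0.00489% and 11.1% in WT. Chains ending GNTLYF had 33.8%, 0.554% and 0.0336% in KO, against 21.1%, 1.05% and 43.9% in WT. DTQYF was the largest class in KO tumors 2 and 3 and in WT tumor 3, EQYF in KO tumor 1 and WT tumor 2, and GNTLYF in WT tumor 4. In an edgeR quasi-likelihood fit on the 6 tumor libraries, 0 of 12 end classes (0%) had an adjusted p under 0.05, 0 had an unadjusted p under 0.05, and DESeq2 and limma also called 0.

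The smaller end classes also lay mostly in a few libraries. Chains ending GQLYF had 0.00116%, 17.7% and 11.6% in KO, against 0.0150%, 1.22% and 0.000530% in WT. Chains ending DYTF had 0.00463%, 12.3% and 4.16% in KO, against 0.0281%, 0.00367% and 1.83% in WT. Both were high in the 2 KO libraries that share clones and near 0 in KO tumor 1. Chains ending ETLYF had at most 4.69% in KO libraries, against 15.7% in WT tumor 4, and those ending QNTLYF had 14.6% in KO tumor 1, against at most 3.23% in WT libraries. Chains ending ERLFF, EQFF, EVFF, QAPLF or SPLYF, or in another way, stayed at or below 6.87% in every library.

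Of the mean length, hydropathy and net charge of the CDR3 in both chains, the charge of the TRA loop was the 1 whose groups did not overlap, without passing the test. Net charge is the number of lysines and arginines minus that of aspartates and glutamates in the middle of the loop, averaged over reads. It was -0.947, -1.44 and -1.10 in KO tumors 1, 2 and 3, against -0.0938, -0.713 and -0.313 in WT tumors 2, 3 and 4. The KO loops carried more negative charge in every library than those of any WT library. The means were -1.16 ± 0.252 in KO and -0.373 ± 0.314 in WT (SD, n = 3 each), a difference of -0.791 (exact p = 0.1, adjusted p = 0.571). The groups stayed apart under all 7 other ways of counting, also where each clonotype counted once whatever its size (difference -0.606). Counting once does not take clone size out, since many entries lay 1 base from a far larger clonotype. Merging such entries into clonotypes at least 100 times larger left 114 of the 307 clonotypes of KO tumor 1. Leaving out the clonotypes at 1% or more in several tumor libraries gave -1.04, -0.862 and -0.870 in KO, against -0.0934, -0.713 and -0.507 in WT. The groups were thus apart without the large shared clones too, with 19.4% of the reads of KO tumor 2 and 39.9% of those of WT tumor 4 left.

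Acidic residues per loop averaged 1.47 ± 0.217 in KO and 0.614 ± 0.305 in WT (SD, n = 3 each). Reads whose TRA loop held 2 or more acidic residues made up 45.9%, 78.7% and 54.1% in KO tumors 1, 2 and 3, against 7.54%, 8.05% and 9.71% in WT tumors 2, 3 and 4, a cut chosen after the values were seen. Glutamate made up 12.6%, 11.7% and 10.3% of the residues of the middle in KO, against 2.46%, 2.80% and 8.34% in WT. It was the 1 amino acid of 20 (5%) whose groups did not overlap in TRA. Aspartate overlapped, with 5.33%, 10.7% and 7.03% in KO, against 1.11%, 8.61% and 2.14% in WT. Basic residues per loop were 0.400, 0.278 and 0.234 in KO, against 0.168, 0.0503 and 0.502 in WT, with no separation.

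The sequences of the leading clonotypes printed above show these residues. The loop of the TRAV7-4 TRAJ42 leader of KO tumors 2 and 3 has the acidic codons GAT and GAG side by side and a net charge of -2. That of the TRAV6-1 TRAJ30 leader of KO tumor 1 has a net charge of -1. The leaders of WT tumors 2 and 4 have a net charge of 0 and that of WT tumor 3 has -1. Of the 3 largest clonotypes in each library, those with a net charge below 0 were 3, 3 and 2 in KO tumors 1, 2 and 3, against 1, 1 and 0 in WT tumors 2, 3 and 4. At ranks 4, 5 and 6 the net charge was -2, 0 and 0 in KO tumor 1 and -1, -2 and -2 in KO tumor 2. It was 0, 1 and -1 in KO tumor 3, against -2, 0 and -1 in WT tumor 2. In WT tumor 3 it was -1, -2 and 0, and in WT tumor 4 it was 0, 0 and -1. With these ranks added the numbers below 0 overlapped between the groups.

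Charge did not separate the genotypes in TRB. The net charge of TRB loops was -0.0170, -0.212 and -0.738 in KO tumors 1, 2 and 3, against -0.188, -0.269 and -0.0379 in WT tumors 2, 3 and 4 (difference -0.157, exact p = 0.7). Threonine was the 1 amino acid of 20 (5%) whose groups did not overlap in TRB, with 7.85%, 8.20% and 4.41% in KO, against 1.51%, 2.80% and 2.89% in WT. Hydropathy on the Kyte-Doolittle scale, where negative values mean water-loving residues, averaged -1.19 ± 0.170 in KO and -1.15 ± 0.175 in WT for TRB (SD, n = 3 each; difference -0.0480, exact p = 0.5).

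TRA hydropathy was -1.47, -1.62 and -1.42 in KO tumors 1, 2 and 3, against -0.469, -1.42 and -1.50 in WT tumors 2, 3 and 4. WT tumor 2 stood apart, and the other WT libraries lay within the KO range (difference -0.368, exact p = 0.5). With each clonotype counted once WT tumor 2 was still the least negative, at -0.596. Mean TRA length was 14.5, 14.7 and 14.7 amino acids in KO, against 14.3, 13.7 and 14.8 in WT (exact p = 0.4). Mean TRB length was 14.9, 14.5 and 14.1 in KO, against 14.5, 14.8 and 15.3 in WT (exact p = 0.4). Loops of 15 amino acids held 45.7%, 72.4% and 60.2% of TRA reads in KO, against 1.73%, 24.4% and 12.1% in WT. The groups did not overlap in this class, which was singled out after the values were seen. From 8 to 21 amino acids, every other length class of TRA and every length class of TRB overlapped. Loops of 13 amino acids, for example, held 18.1%, 0.00237% and 5.35% of TRA reads in KO, against 0.49%, 45.5% and 1.77% in WT. In WT tumor 4 a clonotype of TRAV6-5 TRAJ23 with 13.6% of reads starts without the first cysteine and is an incomplete CDR3. Such entries made up 14.3% of WT tumor 4 and 3.53% of KO tumor 1, and without them the TRA length difference was 0.162 in place of 0.360 amino acids.

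Identical CDR3 amino acid sequences recurred between libraries in 2 ways. Of 68 TRA CDR3s at 1% or more in any tumor library, 14 reached 1% in 2 libraries or more. Of these, 9 were in KO tumors 2 and 3 and 5 in KO tumor 1 and WT tumor 4, and 12 of the 14 had the same leading nucleotide sequence in both libraries. Of 54 TRB CDR3s, 14 recurred, 5 in KO tumors 2 and 3 alone and 6 in KO tumor 1 and WT tumor 4 alone. Nearly all recurrence at this size thus followed the 2 pairs of libraries that share clones by nucleotide sequence.

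The exceptions were TRB chains ending DTQYF. One CDR3 amino acid sequence was at 0.00578%, 40.7% and 13.2% in KO tumors 1, 2 and 3, against 7.57%, 14.6% and 0.0467% in WT tumors 2, 3 and 4. It was the only CDR3 of either chain at 1% or more in 4 tumor libraries. At 0.1% or more it was made by 3 nucleotide sequences, printed with the bases that differ between them in capitals.
KO tumors 2 and 3: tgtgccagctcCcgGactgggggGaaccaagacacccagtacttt
WT tumor 2: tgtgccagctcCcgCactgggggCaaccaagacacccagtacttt
WT tumor 3: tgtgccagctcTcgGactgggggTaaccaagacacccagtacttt
The first held 40.5% of KO tumor 2 and 13.1% of KO tumor 3, the second 7.50% of WT tumor 2 and the third 14.5% of WT tumor 3. The leading sequences of WT tumors 2 and 3 thus made the same protein loop through other codons than that of the KO libraries and than each other. The KO sequence also had 0.0449% of WT tumor 2 and 0.0134% of WT tumor 3. The sequence of WT tumor 3 had 0.0361% of WT tumor 4 and at most 0.00818% of a KO library. That of WT tumor 2 had no read in another tumor library. By amino acids KO tumor 2 and WT tumor 3 had a TRB overlap index of 0.245, against 0.000333 by nucleotide sequence, and KO tumor 2 and WT tumor 2 had 0.103 against 0.00124. TRA overlap by amino acids differed little from that by nucleotide sequence in every pair, with 0.711 and 0.713 for KO tumors 2 and 3.

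A neighbouring CDR3 that differs by 1 amino acid, with aspartate in place of asparagine, was at 2.49% in KO tumor 1, 0.0740% in KO tumor 2 and 1.02% in KO tumor 3, against 0%, 0.00734% and 10.2% in WT tumors 2, 3 and 4. Again different nucleotide sequences stood behind it.
KO tumor 1 and WT tumor 4: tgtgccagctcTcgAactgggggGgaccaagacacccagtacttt
KO tumor 3: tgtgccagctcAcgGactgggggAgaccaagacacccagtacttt
The first held 2.48% of KO tumor 1 and 10.1% of WT tumor 4, and the second 1.00% of KO tumor 3. Another neighbour, with serine at that place, was at 1.61% in KO tumor 1 and at most 0.00987% in KO tumors 2 and 3, against 10.1% in WT tumor 4 and at most 0.00489% in WT tumors 2 and 3, with 1 leading nucleotide sequence. The aspartate and serine forms were thus largest in the same pair of libraries, KO tumor 1 and WT tumor 4, and the asparagine form in others. Reads of the asparagine and of the serine form were found in all 6, but in some only near the limit of counting. The lowest shares were 0.00578% for the asparagine form in KO tumor 1 and 0.00187% for the serine form in WT tumor 2. The latter lay under the 0.00562% that a count of 0 allows in that library. A TRB CDR3 of 13 amino acids ending DTQYF was the 1 chain that reached 1% in 2 WT libraries and in no KO library, with at most 0.00395% in KO tumors, against 6.85% in WT tumor 2, 1.44% in WT tumor 3 and 0% in WT tumor 4. Within a library several nucleotide sequences for 1 CDR3 were few. Of 27, 23 and 42 TRA CDR3s at 0.1% or more in KO tumors 1, 2 and 3, 1, 4 and 3 had more than 1 nucleotide sequence. In WT tumors 2, 3 and 4 it was 2, 0 and 0 of 8, 22 and 22. One of those in KO tumor 2, of TRAV7-4 TRAJ42, had a minor form at 0.189%, 1 base from a form at 35.6%. In KO tumors 2 and 3 another CDR3 of TRAV7-4 TRAJ42 was made by sequences that differ in 1 base and were close in size.
Form 1: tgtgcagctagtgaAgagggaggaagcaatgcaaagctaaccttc
Form 2: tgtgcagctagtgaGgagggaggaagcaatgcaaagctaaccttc
Form 1 held 3.84% of KO tumor 2 and 1.46% of KO tumor 3, and form 2 held 5.13% and 1.32%, while WT tumors had no read of either. KO tumor 1 also had no read of either form. Both forms code for 2 glutamates at this place, and their reads are part of the TRA charge given above for KO tumors 2 and 3.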

How the data were processed

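Per the labels' protocols, TCR-specific primers amplified polyA RNA for Illumina sequencing, with no molecular identifiers described. The authors' deposited counts are reads per CDR3 rearrangement from TRUST4 reports, per the file headers, whose version they do not name. The submitters' processing notes name GRCm39. The deposited fractions are those counts over the chain total of a library, computed by the authors. Unit score marks 2 deposited columns in which the authors placed 2 kinds of values, per the file headers. A few lines of the tables were not analysed here.

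Rows out of frame or with a stop were dropped, and TRAJ7 rows, which end 1 base short, had that base restored. V copies were pooled. Single values were compared by exact two-sided permutation tests over 20 assignments with Benjamini-Hochberg adjustment over 20 values, in Python 3.11.15 with scipy 1.17.1. Segments with 10 reads in all and 0.1% in a library were fitted with edgeR 4.0.16 (glmQLFit) in R 4.3.3, with productive reads as the library size, after tests on simulated data. DESeq2 1.42.0 and limma 3.58.1 were alternatives. Libraries were grouped by the labels. Members and lists were chosen with earlier results of these data known. Named were the 10 TRAV, 10 TRAJ and 12 V-J pairs that ranked highest by mean share of 6 tumor libraries, every TRB end class, any segment past an adjusted p of 0.05, the 3 largest clones of each library and CDR3s at 1% or more in several tumor libraries.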

Additional observations from a re-analysis of the deposited data

Results flagged for a closer look

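Large clonotypes of a lymph node library with a different letter took 10% or more of a tumor library's reads in 7 cases. The node libraries are not in the groups compared. They do enter the spread in the TRAV, TRAJ and V-J fits over all 12 libraries. Of the TRA reads of KO tumor 1, 13.2% lay in clonotypes at 1% or more of WT TDLN 1, and of those of KO tumor 3, 40.7% lay in clonotypes of WT TDLN 3. For WT tumor 2 the share was 91.1% with KO TDLN 1 and 85.4% with KO TDLN 2. For WT tumor 3 it was 87.2% with KO TDLN 3, and 64.0% for TRB. For WT tumor 4 it was 62.7% with WT TDLN 1. Node libraries of the same letter gave at most 0.106% for TRA over 6 pairs and 0.0442% for TRB over 2 pairs. The cause was not tested.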

How the results depend on the processing

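Over all alternatives that answer a comparison, 22 values reversed, 6 counts of calls moved and 303 did neither. The single values could not pass the threshold under any setting, so this counts directions only, and no stability of a call can be read from it. Of the named segments and end classes, 14 share differences moved, 12 of them with shared clonotypes left out and the differences of TRAJ7 (1.41 points in place of 9.43) and TRAV7-4 TRAJ7 with the TRAJ7 frame as deposited. With clonotypes found in libraries of different letters left out, KO minus WT was -190.0 for TRA clonotypes at equal depth, -14.3 for TRA clonotypes holding 50% of reads, 16.1 points for the largest TRA clonotype, 0.261 for TRA clonality and -0.163 amino acids for TRA length. For TRB it was -179.6 sequences at equal depth, -7.33 sequences holding 50%, 11.1 points for the largest sequence, 0.196 for clonality and 0.281 for net charge. This kept 0.915% to 21.8% of TRA reads and 1.78% to 17.5% of TRB reads. With each clonotype counted once, TRA length differed by -0.0818, TRB hydropathy by 0.0962 and TRB charge by 0.0930. Without KO tumor 3 and WT tumor 3 together, the overlap within minus across genotypes was -0.0513 for TRA and -0.0484 for TRB. DESeq2 called 2 TRAV segments, 3 TRAJ segments and 1 V-J pair, and limma with 0.1% added called 1 TRAJ segment and 1 V-J pair. With 1 library left out at a time, TRB hydropathy differed by -0.148 to 0.0498, TRB charge by -0.310 to 0.0506, TRA overlap by -0.0325 to 0.180, TRB overlap by -0.0314 to 0.130, and the count of TRAV segments by 0 to 1. TRB hydropathy was above 0 without KO tumor 2 (0.0498) or WT tumor 2 (0.0179), and TRB charge without KO tumor 3. TRA clonotypes at 1% or more stayed at 6.67 to 11.7, TRA charge at -0.961 to -0.651 and the largest TRB sequence at -24.5 to -14.5 points. The causes were not tested. KO and WT share only the numbers 2 and 3, and nothing says that these pair animals. With this replicate block the difference was 11.5 for TRA clonotypes at 1% or more, -0.869 for TRA charge and -21.1 points for the largest TRB sequence, 0 segments were called, and p could not fall under 0.5. The overlap values have no blocked form. Leaving out clonotypes at 1% or more in several tumor libraries, and leaving out CDR3s without a first cysteine, were chosen after seeing the data. The number of libraries sets the lowest exact p, and reads without molecular identifiers are not independent molecules.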
